A study of Mus musculus with 8 samples.

Results

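Gene expression was compared between neural precursor cells (NPCs) of 2 reciprocal crosses after 12 days of *in vitro* corticogenesis, a culture protocol that drives mouse embryonic stem cells (ESCs) towards cortical neural fates. B/J NPCs came from line BJE2, a C57BL/6 x JF1 hybrid, and J/B NPCs from line JBE6, a JF1 x C57BL/6 hybrid, each with 2 replicate libraries. By the usual convention the mother is written first. JF1 is a *Mus musculus molossinus* strain, so that the autosomes of both lines carry the same pair of parental genomes and only the parent each came from differs. Both lines are male and were derived from blastocysts, and both passed through the same culture, with ESCs kept in medium with LIF, BMP4 and a GSK3-β inhibitor and then differentiated on Matrigel. Each cross is 1 cell line, so cross and line cannot be told apart here. The members were the autosomal genes of the deposited count tables, 25003 of 26263 genes, of which 15794 had enough counts to be tested. Undifferentiated ESCs of the same lines, again 2 libraries per cross, were used for the spread between libraries and for values side by side.

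A reciprocal cross is a classical way to reveal parent-of-origin effects. Most autosomal genes are read from both parental copies and should be blind to the direction of a cross, whereas imprinted genes are read mainly from the maternal or the paternal copy, according to methylation laid down in the germ line. Swapping the parents then exchanges the strain whose allele is active. Counts that pool both alleles, as here, give the total level of a gene and not the allele it came from. *In vitro* corticogenesis yields mainly precursors and neurons of forebrain character, so genes of other regions and lineages, such as the *Hox* genes of the hindbrain and trunk, were described as well.

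Between 25621586 and 32706015 reads per NPC library were counted on genes, so 1 read was worth 0.0306 to 0.0390 CPM (counts scaled to a common library size by the total on genes). All 14 autosomal neural precursor markers listed were read in every NPC library, summing to 1075 and 2055 CPM in B/J replicates 1 and 2 and to 2751 and 2524 CPM in J/B replicates 1 and 2. The 20 trophoblast markers listed summed to 4920.4, 2738, 2611 and 1915 CPM in the same order, so cultures of both crosses held transcripts of other lineages. Replicates of a cross differed. Of the genes tested, 10.3% differed at least 2-fold between the B/J replicates and 9.62% between the J/B replicates. Reads that could not be assigned to a single gene made up 0.536% and 0.554% of replicates 1 and 0.378% and 0.355% of replicates 2. The study's sources name 2 library kits and 2 sequencers, and the sources used here do not say which served which library, so a batch and the replicate number cannot be told apart. Nothing in the labels says that replicates were separate cultures, so p-values measure the spread between these libraries, which may be technical. In bulk RNA, fewer cells of a type and less RNA per cell cannot be told apart.

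In edgeR's quasi-likelihood test, fitted to the 8 libraries together, no autosomal gene passed an adjusted p of 0.05 between the crosses (0 of 15794, or 0%). The smallest adjusted p was 0.232. Without adjustment, 956 autosomal genes (6.05%) had a p below 0.05, of which 325 (2.06%) were higher in J/B and 631 (4.0%) lower. After scaling to *Gapdh*, *Gusb* and *Tbp* in place of trimmed mean (TMM) factors, this split turned to 614 higher and 255 lower, since that scaling moved the median log2 fold change of all autosomal genes from 0.01 to 0.24. DESeq2 called 55 autosomal genes at an adjusted p below 0.05 (0.348%), 22 higher and 33 lower, and limma-voom called 0, with 1474 at an unadjusted p below 0.05. Both J/B libraries lay above both B/J libraries for 3321 tested genes (21.0%) and below both for 2882 (18.2%), together 39.3%. Without B/J replicate 1 the count of genes with an unadjusted p below 0.05 dropped to 274, and without B/J replicate 2 it was 1772. Higher and lower below therefore describe the values read in these libraries. No autosomal gene named passed the adjusted test in the main edgeR fit, with TMM factors, the low-count filter and no replicate block. In edgeR, *Elf3*, *Lama1* and *Utf1* passed without that filter, and *Lama1* and *Utf1* with a replicate block within each stage.

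**Figure D1:**
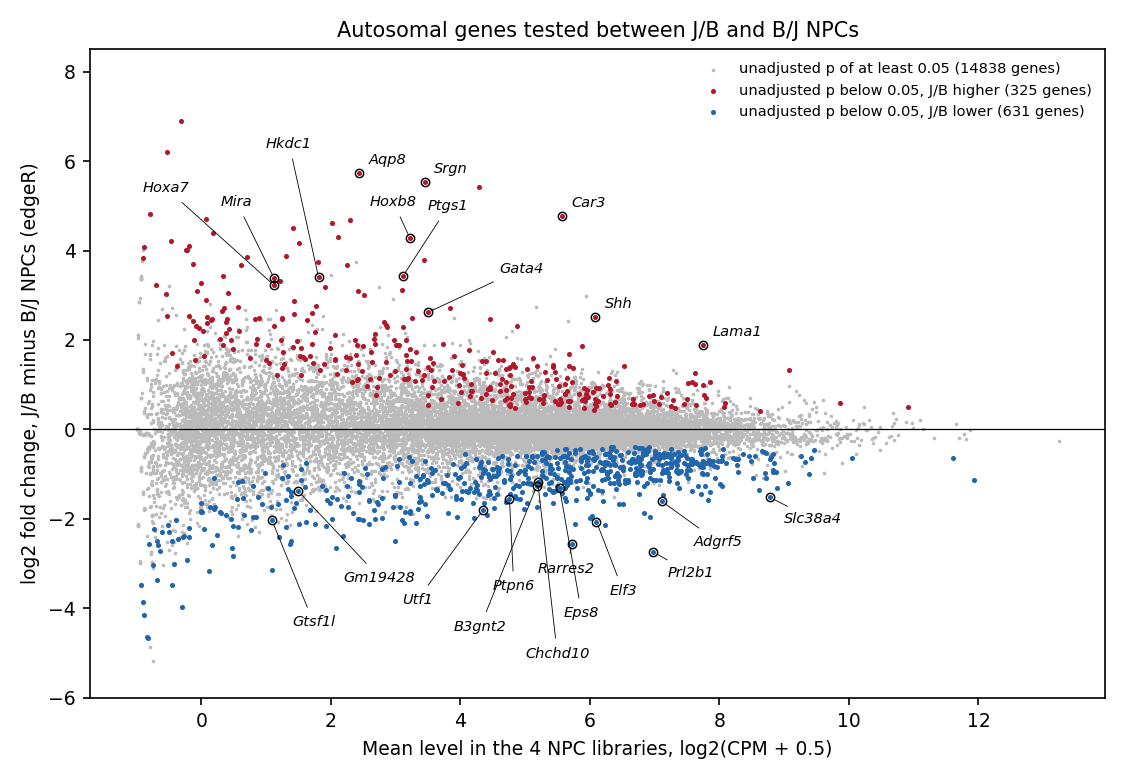
Log2 fold change between J/B and B/J NPCs (edgeR, positive where J/B was higher) against the mean level, log2(CPM + 0.5), for the 15794 autosomal genes tested, each a point. Circles mark the 23 named genes with the smallest p, and the 631 genes at lower J/B values with an unadjusted p below 0.05 outnumber the 325 at higher values.

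The 11 genes reported here among those with the smallest p at higher J/B values and a mean of at least 1 CPM included genes of the basement membrane, endoderm, patterning signals and the *Hox* clusters, and genes of none of these groups. *Lama1* (chr17:68004223-68129642, GRCm39), which encodes the laminin α1 chain of embryonic basement membranes, was read at 77.2 and 100.1 CPM in B/J and at 318 and 363 CPM in J/B. Its log2 fold change was 1.89 (standard error, SE, 0.23, edgeR unadjusted p = 4.24e-05, adjusted p = 0.232), and both J/B libraries were at more than 3 times either B/J library. *Gata4* (chr14:63436362-63509141), a transcription factor of endoderm and heart, was read at 3.83 and 1.99 CPM in B/J against 18.04 and 19.3 CPM in J/B, a log2 fold change of 2.62 (SE 0.45). Levels of *Shh* (chr5:28661813-28672254), the morphogen of the notochord and floor plate, were 20.2 and 18.7 CPM in B/J and 159 and 70.8 CPM in J/B, where replicate 1 was at over 2 times replicate 2. Genes near absence in B/J were among them. *Srgn*, the proteoglycan of secretory granules, was read at 0.454 and 0.376 CPM in B/J and 15.8 and 25.02 CPM in J/B, and *Aqp8*, a water channel, at 0.292 and 0.0376 against 7.19 and 12.1 CPM. *Car3*, a carbonic anhydrase, stood at 3.798 and 2.63 CPM in B/J and at 152 and 29.2 CPM in J/B. The same order, with no overlap, was read for *Ptgs1* (cyclooxygenase 1, 1.66 and 1.02 against 21.3 and 8.63 CPM) and *Hkdc1* (a hexokinase, 0.617 and 0.376 against 5.23 and 5.82 CPM). *Hoxb8*, *Hoxa7* and the non-coding *Mira* beside *Hoxa7* completed the 11.

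Among the 12 at lower J/B values, *Utf1* (chr7:139523649-139525025), a chromatin factor of undifferentiated ESCs, had the smallest p of all autosomal genes. Its levels were 30.9 and 30.4 CPM in B/J and 9.02 and 9.13 CPM in J/B, so that the replicates of each cross nearly coincided, with a log2 fold change of -1.81 (SE 0.21, edgeR unadjusted p = 3.43e-05, adjusted p = 0.232). *Elf3* (chr1:135181306-135188999), an ETS factor of epithelia, was read at 140.1 and 78.3 CPM in B/J and 28.1 and 26.4 CPM in J/B. *Rarres2*, which encodes the secreted chemoattractant chemerin, stood at 119.6 and 58.6 CPM against 13.5 and 17.9 CPM. *Slc38a4* (chr15:96892693-96958593), an amino acid transporter and a paternally expressed imprinted gene, was read at 784 and 507 CPM in B/J and 238 and 230.3 CPM in J/B. The placental hormone gene *Prl2b1* stood at 301 and 134 CPM in B/J and at 30.6 and 37.4 CPM in J/B, a log2 fold change of -2.74 (SE 0.44). The replicates within J/B lay closer together than those within B/J for each of these last 4 genes. The crosses did not overlap either for *Chchd10*, a mitochondrial protein (49.98 and 48.99 against 22.2 and 23.4 CPM), *Eps8*, an actin regulator (74.7 and 54.1 against 26.7 and 27.6 CPM), and *Ptpn6*, the phosphatase SHP-1 (46.6 and 31.8 against 14.8 and 13.1 CPM). *B3gnt2*, a glycosyltransferase gene (60.3 and 39.5 against 22.3 and 21.04 CPM), *Adgrf5*, an adhesion receptor gene (268 and 143 against 68.4 and 71.9 CPM), *Gtsf1l* (2.24 and 2.97 against 0.612 and 0.703 CPM) and the predicted gene *Gm19428* (2.89 and 3.76 against 1.16 and 1.48 CPM) made up the 12. The 23 genes had unadjusted p-values from 3.43e-05 to 0.00285 and adjusted p-values from 0.232 to 0.734 in edgeR, and DESeq2 called 22 of them, with *Hoxa7* the exception (adjusted p = 0.0513).

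**Figure D2:**
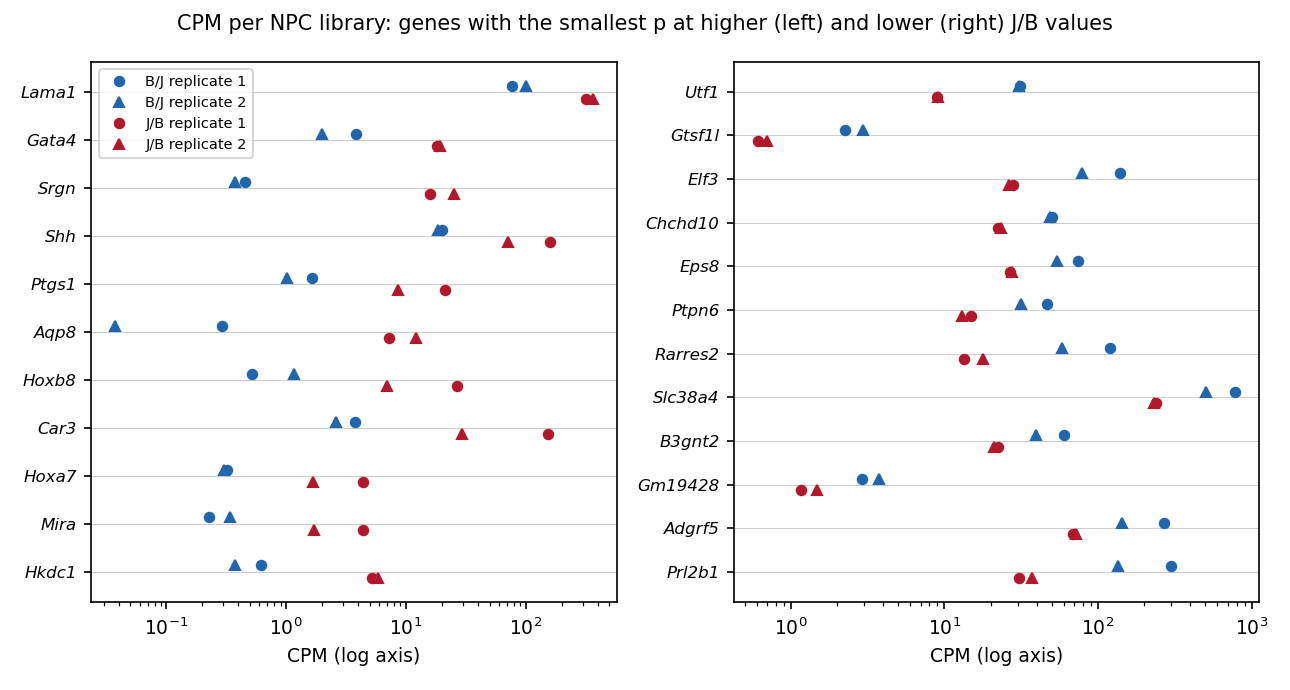
Level in each NPC library, in CPM on a log axis, of the 11 genes reported with the smallest p at higher J/B values (left) and of the 12 at lower J/B values (right), with B/J in blue, J/B in red, circles for replicate 1 and triangles for replicate 2. None of the 23 genes overlaps between the crosses.

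In the main edgeR fit *Hox* genes had the highest median log2 fold change of the 46 gene lists described. These homeodomain factors are arranged in 4 clusters, and genes nearer the 5′ end of a cluster, with higher paralogue numbers, are normally used further back along the body, while the forebrain uses none. The median log2 fold change of the 33 tested *Hox* genes was 2.14, beside 0.01 over all autosomal genes, and 16 of them had an unadjusted p below 0.05, all higher in J/B (2.06% of all genes tested). Of the 38 *Hox* genes counted, 25 lay above and 1 below in J/B without overlap, beside 15.7% and 13.2% of all 25003 autosomal genes counted, tested or not. Of these 16, 12 were in paralogue groups 5 to 9. These groups summed to 7.17 and 12.4 CPM in B/J and to 178 and 50.5 CPM in J/B over 14 genes, of which 13 lay above without overlap. Groups 1 to 4, used from the hindbrain back, were already read in B/J, with sums of 48.6 and 89.3 CPM against 187 and 134 CPM. Groups 10 to 13 stayed near absence in every library, with sums between 1.66 and 3.6996 CPM.

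*Hoxb9* (chr11:96162150-96167421) had the largest change among *Hox* genes with a mean of at least 1 CPM, from 0.1298 and 1.58 CPM in B/J to 63.6 and 11.05 CPM in J/B (log2 fold change 5.43, SE 1.28, edgeR unadjusted p = 0.00309). J/B replicate 1 was the highest library for this gene by more than 5 times. *Hoxb8* (chr11:96172731-96176160) was read at 0.519 and 1.17 CPM in B/J and at 26.6 and 7.03 CPM in J/B. *Hoxa7* (chr6:52191471-52198834) stood at 0.325 and 0.301 against 4.43 and 1.68 CPM, and *Mira*, which neighbours it, at 0.227 and 0.339 against 4.43 and 1.72 CPM. The values of these 2 neighbours were nearly equal in J/B, and the sources used here do not state whether counting used the strand. In the *Hoxc* cluster, *Hoxc6* was read at 0.325 and 0.301 against 12.6 and 4.33 CPM, *Hoxc8* at 0.195 and 0.527 against 11.4 and 3.24 CPM and *Hoxc9* at 0.195 and 0.1505 against 7.03 and 1.33 CPM. *Hoxc10* had 0 counts in both B/J libraries and 40 in J/B, nearly all in replicate 1, which puts the pooled J/B level at least 13.1-fold higher than the limit that 0 counts allows (3 counts over both B/J libraries). The remaining 9 with an unadjusted p below 0.05 were *Hoxa3*, *Hoxa5*, *Hoxa9*, *Hoxb5*, *Hoxb6*, *Hoxb7*, *Hoxc4*, *Hoxc5* and *Hoxd4*, with log2 fold changes from 1.31 to 4.61. *Hoxb3*, the most abundant *Hox* gene, was read at 15.1 and 18.5 CPM in B/J and 37.03 and 30.1 CPM in J/B (log2 fold change 0.95, SE 0.54). At the low end, *Hoxc13* was read at 1.14 and 0.865 in B/J and 0.673 and 1.68 CPM in J/B, with no direction. Without J/B replicate 1 the median of the list dropped to 1.097 and 7 genes had an unadjusted p below 0.05, and without B/J replicate 1 these values were 1.63 and 9.

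**Figure D3:**
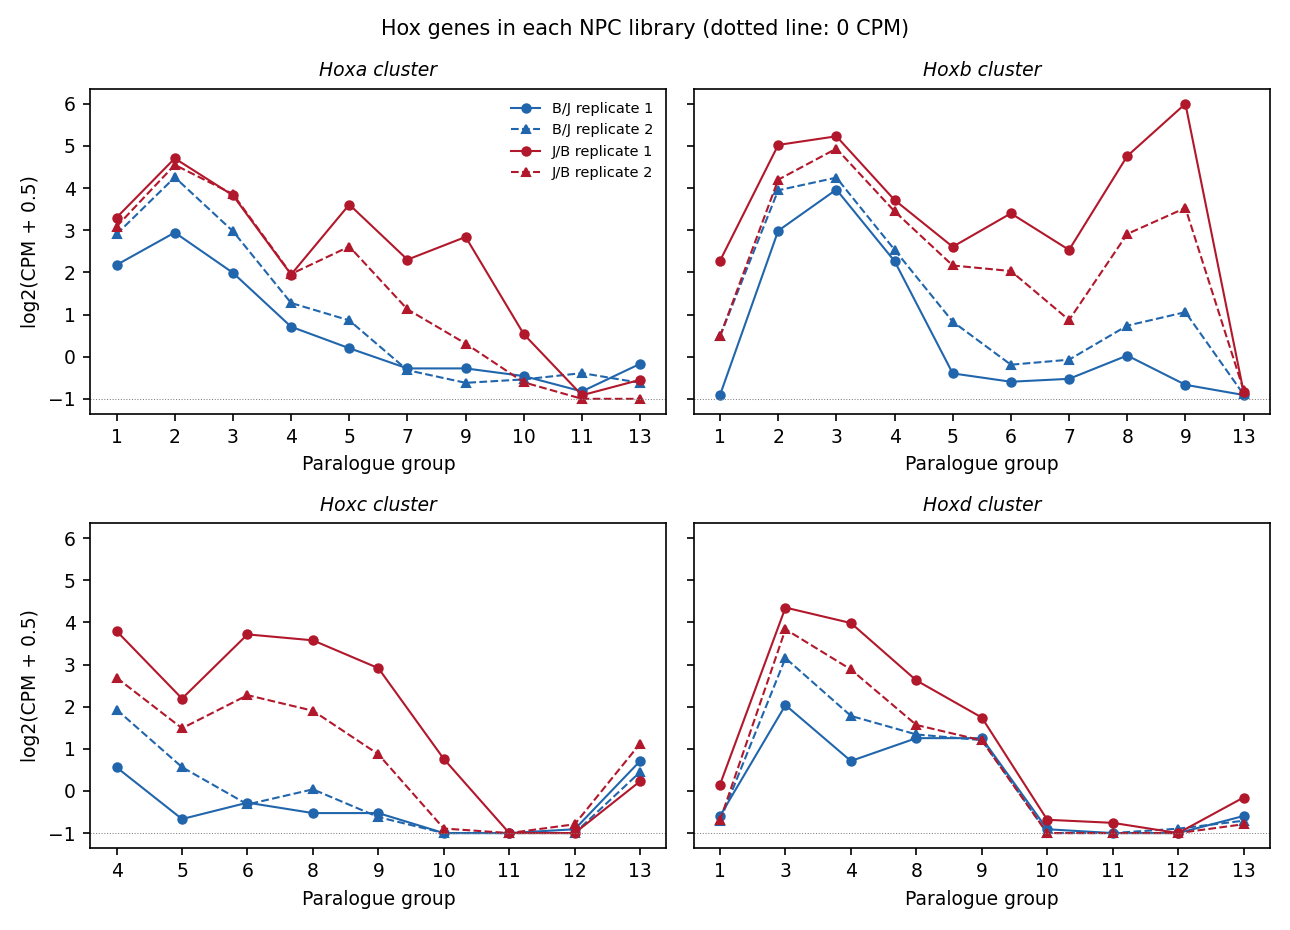
Level, log2(CPM + 0.5), of every *Hox* gene counted, along its cluster by paralogue group, in B/J (blue) and J/B (red) replicates 1 (circles, solid lines) and 2 (triangles, dashed lines). The 4 libraries lie closest at paralogue groups 10 to 13, and the red lines stand apart from the blue at groups 5 to 9, with J/B replicate 1 highest.

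Endoderm markers were also read at higher values in J/B. The median log2 fold change of the 12 tested markers was 1.78, and 1.49 to 2.11 with any 1 library left out. Their sums were 99.3 and 93.1 CPM in B/J and 181 and 187 CPM in J/B. Beside *Gata4*, unadjusted p-values below 0.05 were found for *Gata6* (4.09 and 2.295 against 11.6 and 12.997 CPM), *Sox17* (7.08 and 4.55 against 11.99 and 13.7 CPM), *Sox7* (2.402 and 1.96 against 5.38 and 9.13 CPM) and the receptor gene *Cubn* (0.454 and 0.564 against 5.04 and 2.73 CPM). These made 5 of the list, all higher (2.06% of all genes tested), and 3 without B/J replicate 2. They are transcription factors of primitive and definitive endoderm and a receptor of visceral endoderm. *Dab2*, the most abundant marker of the list, did not separate the crosses, at 61.5 and 61.8 CPM in B/J and 49.8 and 84.2 CPM in J/B. *Ttr*, the gene with the highest log2 fold change of the list (3.45, SE 1.72), rested on J/B replicate 2, with 0.0974 and 1.05 CPM in B/J and 0.459 and 12.5 CPM in J/B. In the list of laminins and other basement membrane genes, *Lama1* had the highest log2 fold change. *Lama5*, the α5 chain, was lower, at 852 and 778 CPM in B/J and 538 and 548 CPM in J/B (edgeR unadjusted p = 0.0212), *Lamc3* was read at 50.4 and 53.4 in B/J and 11.01 and 39.5 CPM in J/B, and the most abundant gene of the list, *Sparc*, at 999 and 627 in B/J and 1034 and 829 CPM in J/B.

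Genes of the hedgehog pathway were read at higher values in J/B alongside the ligand *Shh*. Hedgehog ligands bind the receptor Patched 1, which is itself a target of the pathway. All 13 tested genes had log2 fold changes above 0 with TMM factors, with a median of 0.56, and 11 lay above in J/B without overlap, beside 21.0% of all genes tested. Without B/J replicate 1 the median was 0.35, and 1 gene had an unadjusted p below 0.05 in place of 3. *Shh* had a log2 fold change of 2.52 (SE 0.45, edgeR unadjusted p = 0.000998). *Ihh*, a ligand of endoderm and cartilage, was read at 0.227 and 0.527 against 1.56 and 2.77 CPM. *Ptch1*, the receptor gene and the most abundant of the list, was read at 125 and 153 CPM in B/J and 358 and 218 CPM in J/B (log2 fold change 1.003, SE 0.38, edgeR unadjusted p = 0.0296). *Gas1*, a co-receptor gene, overlapped between the crosses, at 80.04 and 109 in B/J and 87.2 and 131 CPM in J/B, and its log2 fold change was below 0 without B/J replicate 1 or J/B replicate 2.

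Genes of neural precursors and neurons had higher medians in J/B, and both medians depended on single libraries. The 14 neural precursor markers lay at a median log2 fold change of 0.88, and 10 of them lay above in J/B without overlap (21.0% of all genes tested did). *Sox1*, an early neural transcription factor, was read at 11.1 and 36.2 CPM in B/J and 96.6 and 59.3 CPM in J/B (log2 fold change 1.68, SE 0.61, edgeR unadjusted p = 0.0251). *Cdh2*, the neural cadherin, was read at 66.4 and 161 CPM against 289 and 269.6 CPM. *Vim*, the most abundant of the list, stood at 436 and 725 against 877 and 829 CPM, and *Hes1*, with the smallest log2 fold change (0.26), at 38.7 and 44.5 against 53.3 and 49.6 CPM. B/J replicate 1 was the lowest library for each of these 4 genes. The median of the list was 0.34 without B/J replicate 1 and 1.57 without B/J replicate 2.

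Of telencephalic genes, *Neurod6*, a factor of cortical neurons, was at 0.909 and 1.47 CPM in B/J replicates 1 and 2 and 0.887 and 21.5 CPM in J/B replicates 1 and 2, and *Reln*, the Cajal-Retzius cell protein, at 3.34 and 27.4 against 26.2 and 144 CPM. In both genes J/B replicate 2 stood above every other library. Each of the 14 dorsal telencephalon markers overlapped between the crosses, and their median log2 fold change turned from 1.23 to -0.21 without J/B replicate 2. *Lef1*, the most abundant of that list, was read at 38.7 and 40.3 in B/J and 20.3 and 41.1 CPM in J/B. The median of neuronal markers was 0.95, and it was 0.26 without J/B replicate 2 and 1.903 without B/J replicate 2. Of the 15 neuronal markers tested, 1 had an unadjusted p below 0.05 in the main fit (6.67%, beside 6.05% of all autosomal genes). It was *Nefm*, a neurofilament gene, read at 14.4 and 34.6 CPM in B/J and 102 and 82.4 CPM in J/B (edgeR unadjusted p = 0.00645). Its neighbour *Nefl* overlaps it in the annotation and was read at 80.3 and 377 in B/J and 213 and 287 CPM in J/B, and *Map2*, the most abundant neuronal marker, at 74.7 and 304 in B/J and 227 and 523 CPM in J/B. Of the 14 midbrain, hindbrain and spinal cord genes, 8 lay above in J/B without overlap, again beside 21.0% of all genes tested. Their median log2 fold change was 0.703, and it was 0.34 without B/J replicate 1 and 1.35 without B/J replicate 2. *Lmx1a*, a midbrain floor plate factor, was read at 3.08 and 7.41 CPM in B/J and 20.8 and 19.9 CPM in J/B, and *En1*, of the midbrain and hindbrain border, at 2.56 and 3.198 against 19.2 and 4.61 CPM. *Irx3*, the most abundant, overlapped at 99.1 and 92.3 in B/J and 115 and 65.2 CPM in J/B. *T*, the primitive streak and notochord factor, was read at 16.6 and 10.05 CPM in B/J and at 173 and 44.2 CPM in J/B (log2 fold change 2.97, SE 1.31, edgeR unadjusted p = 0.0537).

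Most pluripotency genes were read at lower values in J/B NPCs, although their summed level was not, at 369 and 779.8 CPM in B/J and 763 and 494 CPM in J/B. Of 18 tested, 8 had an unadjusted p below 0.05, all lower, beside 4.0% of all genes tested, and the median log2 fold change was -1.41. Beside *Utf1* they were *Zfp42* (7.47 and 14.3 against 3.52 and 4.53 CPM), *Klf2* (11.3 and 21.5 against 4.98 and 7.38 CPM), *Dppa3* (1.104 and 2.07 against 0.183 and 0.273 CPM), *Dppa4* (4.64 and 13.5 against 1.896 and 4.25 CPM), *Fgf4* (6.36 and 23.2 against 2.45 and 6.52 CPM), *Nanog* (11.003 and 44.02 against 7.43 and 13.5 CPM) and *Tfcp2l1* (14.7 and 36.9 against 7.95 and 12.4 CPM). B/J replicate 2 was the highest library for each of these 7, and without it the median of the list was -0.37, with 3 genes lower and 1 higher at an unadjusted p below 0.05. Without J/B replicate 1 the median was -1.03, with 2 genes lower, and without B/J replicate 1 it was -1.86, with 13. *Fgf4* and *Nanog* overlapped between the crosses, and the other 6 did not. *Prdm14*, with the lowest log2 fold change among markers with a mean of at least 1 CPM (-2.02), rested on the same library, at 0.389 and 3.499 in B/J and 0.214 and 0.781 CPM in J/B. *Lin28a*, an RNA-binding protein that neural precursors also use, was the most abundant of the list, at 73.8 and 110.1 CPM in B/J and 382 and 74.5 CPM in J/B. *Utf1* was not of that pattern, since its B/J replicates differed by less than 1 CPM.

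Trophoblast genes, which mark the lineage of the placenta, were lower in J/B for the most part. The median log2 fold change of the 20 markers was -0.77, 12 lay below in J/B without overlap and 2 above (18.2% and 21.0% of all genes tested), and 5 had an unadjusted p below 0.05 on the lower side (4.0% of all genes tested). Without B/J replicate 2 there were 9 of these, and with housekeeping scaling 2, beside 2 higher. *Gata2*, a transcription factor of trophoblast giant cells, was read at 175 and 98.7 CPM in B/J and 46.6 and 43.1 CPM in J/B, and *Tfap2c*, a factor of the trophoblast lineage, at 386 and 224 against 142 and 123 CPM. *Pappa2*, a protease of invading trophoblast, was read at 314 and 270.4 against 199 and 172 CPM, *Syna*, the fusion protein of syncytiotrophoblast, at 23.04 and 10.8 against 7.31 and 6.48 CPM, and *Phlda2*, a maternally expressed imprinted gene that restrains placental growth, at 44.8 and 24.004 against 11.6 and 9.41 CPM. *Prl3d1*, a hormone of giant cells, ran the other way, at 0.454 and 0.7901 CPM in B/J and 8.26 and 3.47 CPM in J/B. B/J replicate 1 was highest for the 5 lower genes, and without it the median was -0.39 and 1 gene had an unadjusted p below 0.05 on the lower side. Without J/B replicate 1 there were 2 such genes and without J/B replicate 2 there was 1, at medians of -1.09 and -0.84. *Krt8*, the most abundant marker and a keratin of many simple epithelia, overlapped at 1557 and 796 in B/J and 894 and 568 CPM in J/B, and the trophoblast and mesoderm factor gene *Hand1* was read at 37.6 and 23.2 CPM in B/J and 14.8 and 7.03 CPM in J/B (log2 fold change -1.53, SE 1.12). Prolactin family genes split in both directions, 9 of 25 above and 6 below without overlap (15.7% and 13.2% of all autosomal genes counted), and near-identical copies within the family can share reads. Among members with a mean of at least 1 CPM, *Prl2b1* had the lowest log2 fold change and *Prl3d1* the highest (3.19, SE 0.77). Of the 20 members tested, 1 passed the filter through J/B alone. *Prl2a1*, the most abundant, was read at 272 and 151 in B/J and 286 and 158 CPM in J/B.

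Of the 17 autosomal endothelial and blood markers, 7 lay below and 2 above in J/B without overlap, beside 13.2% and 15.7% of all autosomal genes counted, and 13 were tested, 2 of which passed the filter through B/J alone. *Cdh5*, the endothelial cadherin, was read at 879.8 and 454 CPM in B/J and 306 and 254 CPM in J/B, and *Pecam1* at 26.3 and 19.9 against 8.65 and 7.81 CPM, whereas *Tek* was read at 1.298 and 1.47 in B/J and 2.599 and 1.68 CPM in J/B. The haemoglobin genes *Hbb-bs*, *Hbb-bt* and *Hba-a1* had 0 counts in all 4 NPC libraries. *Cdh5* alone made up most of the summed level of the list, which was 971, 539.6, 353 and 324 CPM in B/J replicates 1 and 2 and J/B replicates 1 and 2. The trophoblast sums given above follow the same order of libraries.

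Interferon response and antigen presentation genes were read at lower values in J/B, with 31 of 33 tested genes below 0 in log2 fold change. Type I interferon activates transcription factors that bind a response element whose core reads GAAA, any 2 bases and again GAAA in the promoters of their targets. This core, searched on both strands, was in the RefSeq promoter window (250 bases before to 50 after the start, GRCm38.p6) of 15 of the 29 list members that the promoter table holds, and in 3.99% of all 27025 genes in the table. The windows of 4 members with an unadjusted p below 0.05 are given to show it, 5′ to 3′ in the direction of the gene, with each match in capitals (*Isg15* chr4:156200769-156201068, *Bst2* chr8:71537423-71537722, *Oas1a* chr5:120907476-120907775 and *Rsad2* chr12:26456403-26456702, all on the minus strand). A match describes letters in the window and was not tested as a binding site.
Isg15: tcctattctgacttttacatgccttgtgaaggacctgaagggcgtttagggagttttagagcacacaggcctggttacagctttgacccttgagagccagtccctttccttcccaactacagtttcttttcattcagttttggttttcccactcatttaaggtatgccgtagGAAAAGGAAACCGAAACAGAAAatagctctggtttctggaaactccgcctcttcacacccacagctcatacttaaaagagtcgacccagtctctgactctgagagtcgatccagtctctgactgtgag
Bst2: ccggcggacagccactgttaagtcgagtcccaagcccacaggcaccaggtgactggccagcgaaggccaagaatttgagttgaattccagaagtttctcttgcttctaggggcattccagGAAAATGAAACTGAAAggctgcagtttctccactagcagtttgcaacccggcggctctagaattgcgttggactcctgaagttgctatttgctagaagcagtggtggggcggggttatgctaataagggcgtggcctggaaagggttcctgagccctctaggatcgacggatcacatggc
Oas1a: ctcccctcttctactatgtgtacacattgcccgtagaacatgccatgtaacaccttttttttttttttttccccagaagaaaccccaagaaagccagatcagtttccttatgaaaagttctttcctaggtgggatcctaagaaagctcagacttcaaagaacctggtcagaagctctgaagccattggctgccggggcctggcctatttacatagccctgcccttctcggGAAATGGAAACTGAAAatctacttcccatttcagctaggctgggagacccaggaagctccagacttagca
Rsad2: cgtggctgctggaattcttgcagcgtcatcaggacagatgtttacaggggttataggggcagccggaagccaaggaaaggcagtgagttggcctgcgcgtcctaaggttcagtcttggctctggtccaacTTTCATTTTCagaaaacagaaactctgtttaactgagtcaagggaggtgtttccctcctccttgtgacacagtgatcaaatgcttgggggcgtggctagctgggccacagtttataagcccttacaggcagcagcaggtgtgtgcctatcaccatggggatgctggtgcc
In *Isg15*, *Bst2* and *Oas1a* neighbouring matches overlap into a longer run, and in *Rsad2* the match is on the opposite strand.

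The median log2 fold change of the 33 tested genes of this list was -0.86, and 26 of them lay below in J/B without overlap (18.2% of all genes tested did). An unadjusted p below 0.05 was found for 8, all lower in J/B (4.0% of all genes tested), of which 7 are given here, and for 3 with housekeeping scaling. Their summed level was 2728 and 1692 CPM in B/J and 1245 and 1361 CPM in J/B. *Bst2*, which encodes tetherin, had the smallest p of the list, at 266 and 138 CPM in B/J and 73.4 and 78.7 CPM in J/B (log2 fold change -1.47, SE 0.304, edgeR unadjusted p = 0.00147). *Rsad2*, the antiviral enzyme viperin, was read at 162 and 96.1 CPM in B/J and 57.6 and 64.9 CPM in J/B. *Ddx58*, the RNA sensor RIG-I, was read at 161 and 95.3 against 51.4 and 64.9 CPM. *Oas1a*, which had the lowest log2 fold change among members with a mean of at least 1 CPM (-1.61, SE 0.63), was read at 51.5 and 25.1 against 12.4 and 13.8 CPM. *Isg15* (91.3 and 31.1 against 24.7 and 23.8 CPM), *Usp18* (99.03 and 55.8 against 30.2 and 35.01 CPM) and *Ifitm3* (70.1 and 36.4 against 29.1 and 31.4 CPM) also had an unadjusted p below 0.05, and *Ifitm1* had the highest log2 fold change (0.16, SE 0.38). B/J replicate 1 was the highest library for these 7 genes and also held the highest trophoblast and endothelial sums. The part of these cells in the interferon difference was not tested. Without B/J replicate 1 the median was -0.395 and 1 gene had an unadjusted p below 0.05, and without B/J replicate 2 these values were -1.24 and 18. They were -0.85 and 2 without J/B replicate 1.

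Imprinted genes are those where a reciprocal cross exchanges the active allele. Of 63 tested autosomal imprinted genes, 17 had an unadjusted p below 0.05 (26.98%, beside 6.05% of all autosomal genes), 6 higher and 11 lower in J/B. The crosses overlapped in none of the 17, and they did not overlap either in 940 of the 956 autosomal genes with such a p. With housekeeping scaling 7 imprinted genes with such a p were higher and 5 lower, so the majority turned. DESeq2 called 5 of the tested imprinted genes at an adjusted p below 0.05, beside 0.348% of all autosomal genes. The median log2 fold change was 0.42 for paternally and 0.05 for maternally expressed genes. With 1 library left out these medians ran from 0.09 to 0.54 and from -0.15 to 0.098. Paternally expressed genes were in both directions. *Mest*, a hydrolase-like growth gene (chr6:30723546-30752058), was read at 286 and 315 CPM in B/J and 924 and 627 CPM in J/B (log2 fold change 1.32, SE 0.33, edgeR unadjusted p = 0.00397). *Peg12* stood at 10.5 and 22.8 against 64.1 and 39.7 CPM, the zinc finger gene *Plagl1* at 134 and 159 against 291 and 337 CPM, *Usp29* at 32.9 and 36.8 against 46.6 and 78.3 CPM and *Zdbf2* at 69.7 and 166 against 238 and 258 CPM.

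On the lower side, *Igf2* (chr7:142204503-142220694), the fetal growth factor and the most abundant paternally expressed gene, was read at 5158 and 5449 CPM in B/J and 1989.7 and 3045 CPM in J/B (log2 fold change -1.13, SE 0.404, edgeR unadjusted p = 0.0245). *Peg10*, which the placenta needs, was read at 4369 and 3116 against 2405 and 2598 CPM, and *Sfmbt2* at 405 and 248 against 163 and 159 CPM. *Dio3*, which inactivates thyroid hormone, had the lowest log2 fold change (-2.101, SE 0.48), at 17.6 and 8.88 against 3.302 and 3.12 CPM. *Zfp64* stood at 107 and 67.9 against 62.2 and 47.8 CPM. *Slc38a4*, *Sfmbt2*, *Peg10* and *Phlda2* are used in trophoblast, whose summed markers were highest in the same B/J replicate 1 as each of these 4 genes, and the part of that lineage was not tested. Of maternally expressed genes, the receptor gene *Igf2r* was read at 289 and 349 CPM in B/J and 195 and 211 CPM in J/B, the signalling adaptor gene *Grb10*, listed here as maternally expressed, at 406 and 576 against 282 and 196 CPM, and *Slc22a18* at 10.5 and 4.97 against 1.896 and 2.11 CPM. *Zim1*, known as maternally expressed in the mouse although the list used here held it under paternal expression, was read at 64.01 and 72.7 against 17.9 and 39.8 CPM. *Mirg*, a non-coding RNA of the *Dlk1*-*Meg3* region, was higher in J/B, at 7.01 and 8.58 against 14.6 and 13.04 CPM. *H19*, the most abundant maternally expressed gene, overlapped between the crosses at 3914 and 2112 in B/J and 2621 and 4171 CPM in J/B, and *Nap1l5* (2.01 and 4.44 in B/J and 3.49 and 17.9 CPM in J/B) and *Dcn* (3.86 and 1.88 in B/J and 6.42 and 15.1 CPM in J/B), the genes with the highest log2 fold change of their lists, had edgeR unadjusted p-values of 0.06905 and 0.07001.

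**Figure D4:**
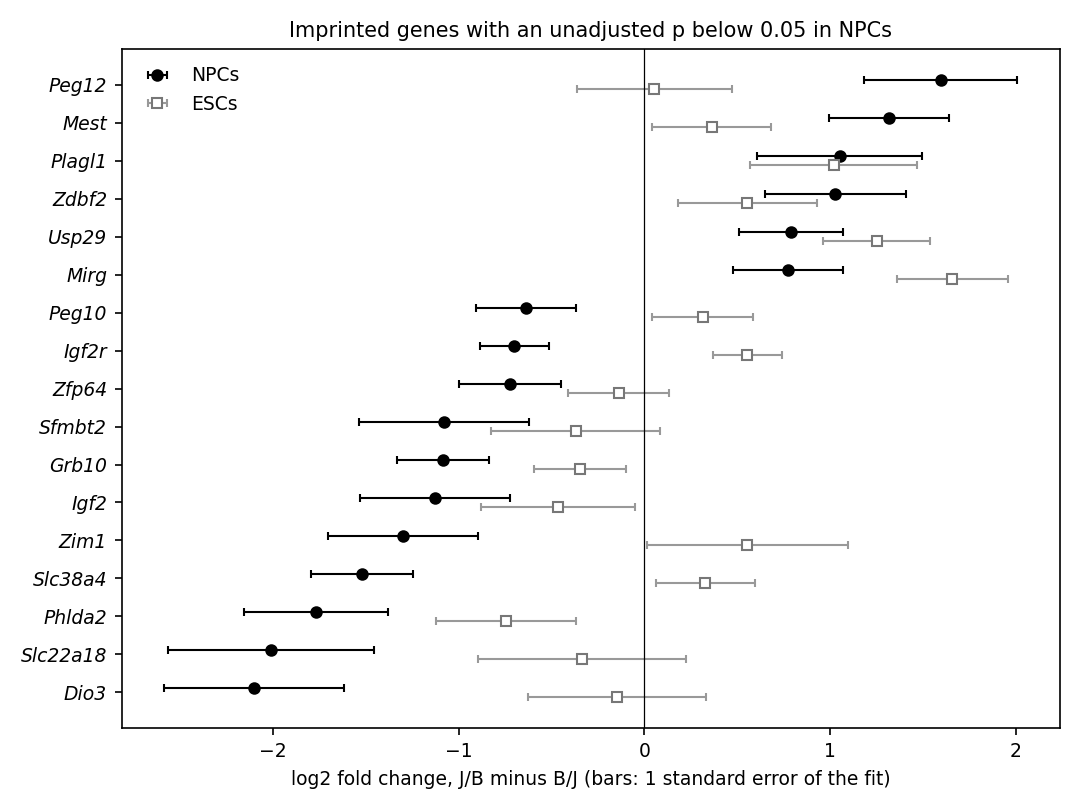
Log2 fold change between J/B and B/J (edgeR) of the 17 imprinted genes with an unadjusted p below 0.05 in NPCs, in NPCs (filled circles) and ESCs (open squares), with bars of 1 standard error of the fit. Of the 17, 13 have the same sign in both stages, and *Igf2r*, *Zim1*, *Slc38a4* and *Peg10* have opposite signs. Only 3 of the 17 had an unadjusted p below 0.05 in ESCs.

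The *Peg13*-*Kcnk9* domain on chromosome 15, where paternally expressed *Peg13* lies within the gene of the trafficking protein *Trappc9* and *Kcnk9* encodes a background potassium channel read from the maternal copy in brain, overlapped between the crosses in total level at all 5 genes tested. *Kcnk9* (chr15:72372938-72419556) was read at 0.779 and 6.28 CPM in B/J and 4.98 and 13.9 CPM in J/B, with a log2 fold change of 1.38 (SE 0.96, edgeR unadjusted p = 0.196). *Peg13* (chr15:72677449-72682173) was read at 13.02 and 28.6 CPM in B/J and 23.2 and 53.7 CPM in J/B, a log2 fold change of 0.84 (SE 0.54, edgeR unadjusted p = 0.159). In both genes replicate 2 was the higher of each cross, and the crosses overlapped. *Trappc9* (35.6 and 44.7 in B/J and 41.5 and 48.4 CPM in J/B), *Chrac1* (16.002 and 15.5 in B/J and 17.7 and 14.9 CPM in J/B) and *Ago2* (137 and 196 in B/J and 161 and 164 CPM in J/B) overlapped as well, with log2 fold changes between -0.08 and 0.11 and SEs between 0.23 and 0.25.

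Signalling genes other than those of hedgehog were found in both directions. In the Wnt list, 5 of 47 tested genes had an unadjusted p below 0.05, all higher in J/B (2.06% of all genes tested), and 1 had without B/J replicate 1. The 5 were the receptor genes *Fzd3* (57.2 and 186 against 256 and 266 CPM) and *Fzd9* (4.22 and 6.17 against 12.5 and 11.1 CPM), the secreted inhibitor genes *Sfrp1* (85.98 and 120.4 against 236 and 139 CPM) and *Wif1* (1.07 and 0.752 against 4.01 and 2.81 CPM), and the ligand gene *Wnt8a* (1.59 and 1.73 against 7.25 and 2.26 CPM). *Rspo2*, with the highest log2 fold change of the list (2.75, SE 1.19), rested on J/B replicate 2, at 1.82 and 16.2 in B/J and 9.91 and 114 CPM in J/B, and *Notum* had the lowest (-0.56, SE 0.36). In the TGF-beta, Nodal and BMP list, the ligand genes *Nodal* (3.51 and 5.91 against 2.08 and 1.72 CPM) and *Gdf3* (1.88 and 4.93 against 0.5504 and 1.72 CPM) and the Nodal antagonist genes *Lefty1* (3.34 and 8.62 against 2.38 and 3.43 CPM) and *Lefty2* (6.43 and 23.9 against 1.68 and 5.74 CPM) had unadjusted p-values below 0.05 on the lower side. All 4 were highest in B/J replicate 2, the library with the highest values of most of the pluripotency genes above. *Tgfbr3* was also lower, at 256 and 159.6 against 111 and 116 CPM, while *Fst*, the activin antagonist gene, was higher, at 6.72 and 12.2 CPM in B/J and 51.3 and 44.96 CPM in J/B, as was *Ltbp1*, at 18.9 and 28.2 against 44.1 and 34.2 CPM. Together 5 genes of this list were lower and 2 higher (4.0% and 2.06% of all genes tested), 4 and 0 without B/J replicate 1 and 1 and 2 without J/B replicate 1 or with housekeeping scaling. *Acvr2b*, the most abundant of the list, was read at 191 and 279.9 in B/J and 289 and 255 CPM in J/B. Of FGF genes, *Fgf3* (0.422 and 0.865 against 1.87 and 3.04 CPM), *Fgf15* (19.4 and 38.4 against 59.5 and 94.6 CPM) and *Fgfr3* (28.1 and 67.5 against 122 and 96.2 CPM) were higher in J/B and *Fgf4* lower (3 and 1 genes, 0 and 3 without B/J replicate 1 and 0 and 1 without J/B replicate 2), and the most abundant, *Fgfr1*, overlapped at 306 and 245 in B/J and 271 and 239 CPM in J/B.

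Genes of basic cell functions, collagens, Notch and protocadherins gave no gene at an unadjusted p below 0.05 in the main edgeR fit. This held for 72 ribosomal protein genes, 63 respiratory chain genes, 39 DNA replication genes, 25 mitosis genes, 18 glycolysis genes, 33 collagen genes, 24 Notch pathway genes and 52 clustered protocadherins. Of these, 8 Notch genes and 17 protocadherins lay above in J/B without overlap (21.0% of all genes tested). With housekeeping scaling 4 DNA replication genes and 3 collagen genes were higher in J/B at an unadjusted p below 0.05. With a library left out, DNA replication genes had 8 higher without J/B replicate 2 and 3 lower without J/B replicate 1, Notch genes 4 higher without B/J replicate 2, and these other lists at most 2, save the ribosomal proteins. Ribosomal protein genes had a median log2 fold change of -0.22 that was -0.000787 with that housekeeping scaling and -0.49 without J/B replicate 1, when 12 of them had an unadjusted p below 0.05. In cholesterol synthesis 3 of 19 genes had an unadjusted p below 0.05, all higher in J/B (2.06% of all genes tested), and 11 lay above without overlap (21.0%). Without B/J replicate 1 or J/B replicate 1 no gene of the list had such a p, and with housekeeping scaling 7 did. *Hmgcs1*, which makes the precursor of mevalonate, was read at 594 and 858 CPM in B/J and 1135 and 1129 CPM in J/B (log2 fold change 0.59, SE 0.195, edgeR unadjusted p = 0.0168). *Lss*, the lanosterol synthase, was read at 112 and 134 against 184 and 182 CPM. Synapse, neurotransmitter receptor and voltage-gated channel genes had medians of 0.96, 1.08 and 0.98, which were 0.11, 0.24 and 0.14 without J/B replicate 2 and 1.73, 2.19 and 1.804 without B/J replicate 2. They were 0.41, 0.53 and 0.35 without B/J replicate 1 and 1.47, 1.64 and 1.29 without J/B replicate 1.

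**Figure D5:**
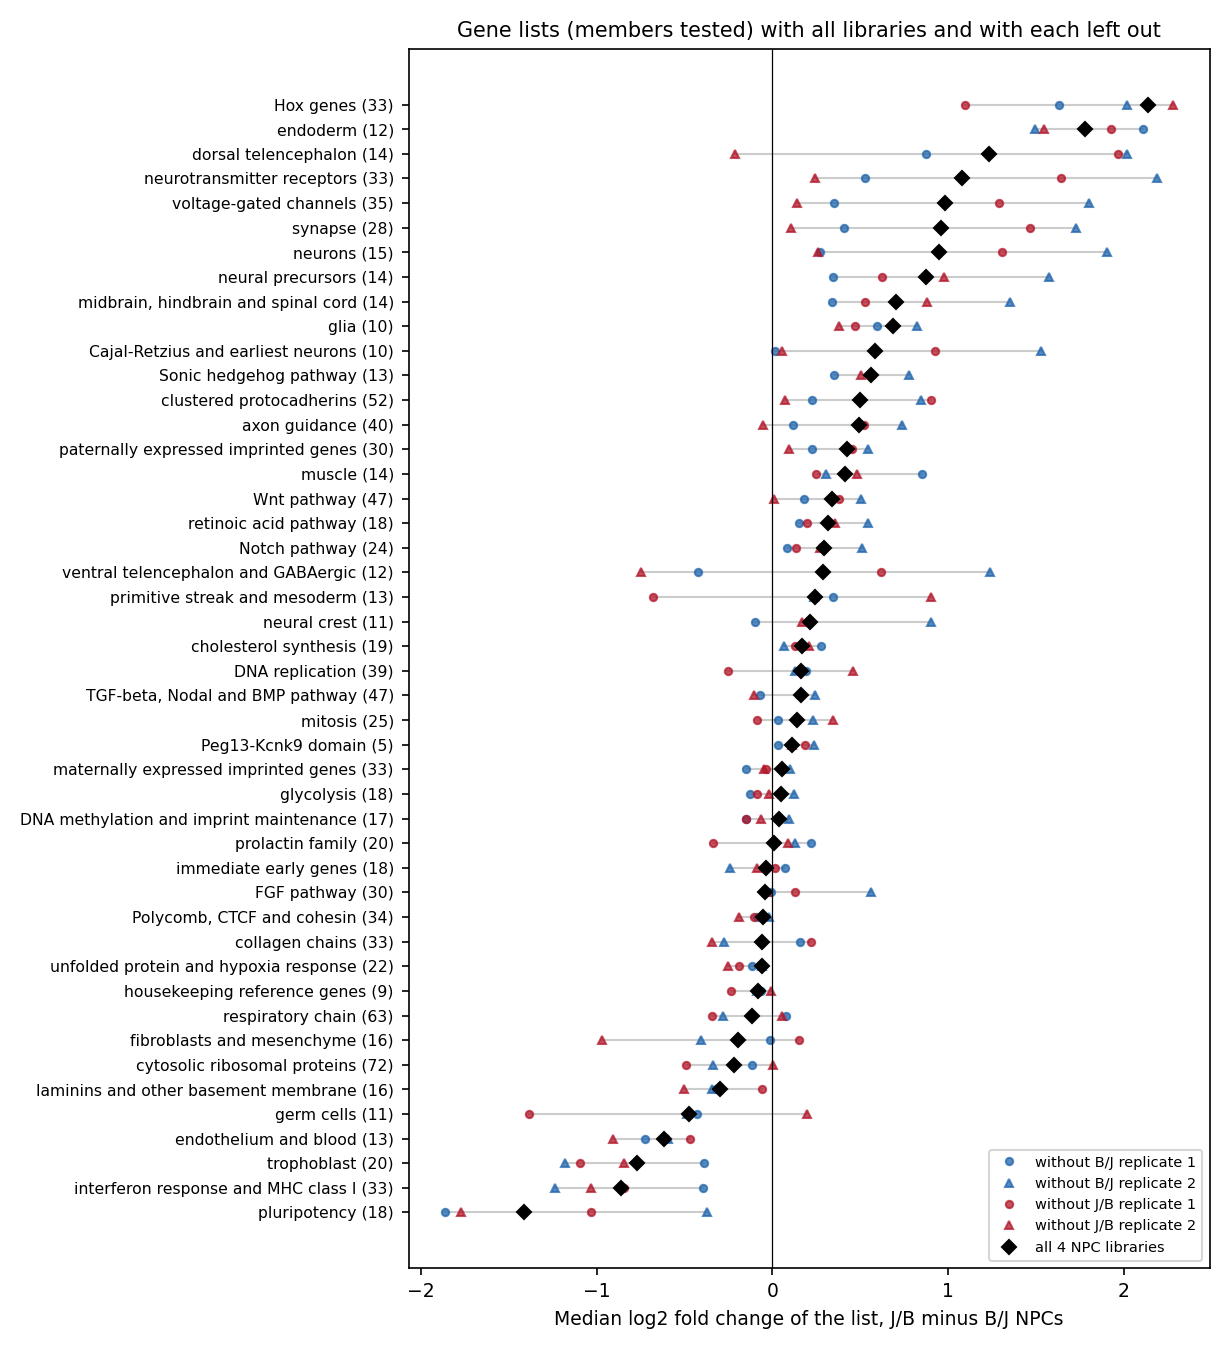
Median log2 fold change between J/B and B/J NPCs (edgeR) of the tested members of each of the 46 gene lists (numbers in brackets), with all libraries (black diamonds) and without B/J (blue) or J/B (red) replicate 1 (circles) or 2 (triangles). *Hox* and endoderm genes stay above 1 in every case, and pluripotency, trophoblast, interferon and endothelial genes stay below 0.

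The lists of other cell types below held at most 2 genes each with an unadjusted p below 0.05. Their shares of the genes tested were 0% in neural crest, 8.33% in ventral telencephalon, 10% in Cajal-Retzius genes and 10% in glia. In muscle, germ cell and fibroblast genes the shares were 7.14%, 9.09% and 12.5%, beside 6.05% of all autosomal genes. Among genes of ventral telencephalon and GABAergic neurons, *Lhx6*, a factor of cortical interneurons, was read at 1.201 and 1.62 CPM in B/J and 3.21 and 3.59 CPM in J/B, while *Dlx2* was read at 1.33 and 4.18 in B/J and 0.612 and 2.46 CPM in J/B. Of the genes of Cajal-Retzius cells and the earliest neurons, *Trp73* was high in J/B replicate 2, at 1.36 and 3.09 in B/J and 2.32 and 20.3 CPM in J/B, and *Cxcl12*, the most abundant, was read at 164 and 161 in B/J and 87.1 and 144 CPM in J/B. The oligodendrocyte lineage factors *Olig1* (0.552 and 1.505 against 3.73 and 1.68 CPM) and *Olig2* (1.23 and 5.23 against 14.3 and 6.09 CPM) lay above in J/B without overlap, with edgeR unadjusted p-values of 0.0439 and 0.0709. The growth factor receptor gene *Pdgfra*, the most abundant of the glial list, overlapped at 129.6 and 94.6 in B/J and 56.8 and 148 CPM in J/B. None of the neural crest genes had an unadjusted p below 0.05, and at most 1 had with a library left out. Among neural crest genes with a mean of at least 1 CPM, *Pax3* had the highest log2 fold change (0.72, SE 0.56) and *Twist1* the lowest (-0.74, SE 0.43). *Tfap2b*, the most abundant, was read at 46.2 and 112 in B/J and 51.3 and 199.9 CPM in J/B.

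Mesenchymal and muscle genes were in both directions. *Thy1*, a surface protein gene of fibroblasts and neurons, was read at 2.11 and 1.81 CPM in B/J and 6.39 and 8.78 CPM in J/B, and *Snai1*, a factor of epithelial to mesenchymal transition, at 81.2 and 30.8 against 30.3 and 20.9 CPM. The fibronectin gene *Fn1*, the most abundant of the list, was read at 1819 and 1689.97 in B/J and 1591 and 1514 CPM in J/B, *Acta2* at 11.003 and 8.05 in B/J and 74.1 and 16.4 CPM in J/B and *Col1a2* at 209.7 and 159 in B/J and 39.1 and 125 CPM in J/B. In the muscle list *Cnn1*, of smooth muscle, was read at 0.389 and 0.677 against 3.12 and 1.01 CPM and *Myl4*, the most abundant, at 17.6 and 10.01 against 7.12 and 4.88 CPM. Of germ cell genes, *Stk31* was read at 0.325 and 1.24 against 0.306 and 0.117 CPM and *Dazl*, high in B/J replicate 2, at 0.584 and 7.6001 in B/J and 0.275 and 1.76 CPM in J/B. That library was also highest for *Dnmt3l*, the cofactor gene of *de novo* DNA methylation, at 5.06 and 17.04 in B/J and 1.77 and 5.11 CPM in J/B (edgeR unadjusted p = 0.0319), and for the cohesin gene *Smc1b*, at 2.43 and 5.91 against 1.38 and 1.09 CPM (unadjusted p = 0.0285 in edgeR). The imprint keepers *Zfp57* (52.3 and 84.5 in B/J and 61.4 and 142 CPM in J/B) and *Trim28* (587 and 643 in B/J and 808 and 613 CPM in J/B) overlapped between the crosses. The Polycomb gene *Cbx7* was read at 42.3 and 52.3 CPM in B/J and 30.8 and 30.95 CPM in J/B (log2 fold change -0.66, SE 0.19, edgeR unadjusted p = 0.00861).

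In the remaining lists, *Aldh1a2*, the main enzyme of retinoic acid synthesis in the embryo, was read at 10.2 and 8.503 CPM in B/J and 24.7 and 20.8 CPM in J/B (log2 fold change 1.23, SE 0.36, edgeR unadjusted p = 0.00896). The receptor gene *Rxra*, the most abundant of that list, was read at 203 and 123 against 117 and 90.1 CPM. Of axon guidance genes, the ligand gene *Slit2* was read at 33.01 and 64.6 against 160.1 and 109.6 CPM and the semaphorin gene *Sema3e* at 164 and 116 against 78.3 and 76.8 CPM, and these were the only 2 of 40 genes tested with an unadjusted p below 0.05 (6.05% of all genes), while without B/J replicate 2 there were 10 higher and 4 lower (10.7% of all genes). *Gabra5* (0.0974 and 0.0752 against 0.734 and 0.898 CPM) and *Gabrg1* (0.0974 and 0.0752 against 0.703 and 1.13 CPM), subunits of GABA receptors, lay above in J/B, and both rested on few reads in B/J. Of the 34 neurotransmitter receptor genes, 9 lay above in J/B without overlap, beside 15.7% of all autosomal genes counted. Of the 33 tested, 1 passed the filter through J/B alone. The hypoxia target *Ndrg1* was read at 431 and 239.7 against 129 and 106 CPM and *Higd1a* at 39.5 and 42.97 against 59.7 and 61.4 CPM. Of immediate early genes *Klf6*, the most abundant, was read at 336 and 285 against 202 and 229 CPM. *Fosb*, with the highest log2 fold change among those with a mean of at least 1 CPM, was read at 33.4 and 40.1 against 46.05 and 111 CPM. *Gusb*, a reference gene and part of the housekeeping scaling, was itself lower in J/B, at 35.6 and 21.4 CPM in B/J and 16.6 and 15.3 CPM in J/B (edgeR unadjusted p = 0.0358).

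In ESCs of the same lines, 0 autosomal genes were called by edgeR between the crosses, DESeq2 called 1 and 281 (1.78%) had an unadjusted p below 0.05. Of the 956 genes with an unadjusted p below 0.05 in NPCs, 39 had one in ESCs too, which is 4.08% of the NPC genes and 13.9% of the ESC genes, and 21 of these had the same direction. Across genes, which are not independent replicates, the log2 fold changes of both stages had a Pearson r of 0.0312. The test of the difference between the stages, an interaction term in the same fit, called 0 autosomal genes (smallest adjusted p = 0.99996), with 513 (3.25%) at an unadjusted p below 0.05 and 6 called by DESeq2. *Lama1* had a log2 fold change of -0.08 (SE 0.22) in ESCs beside 1.89 in NPCs (edgeR interaction, unadjusted p = 0.0002897). *Utf1* had -0.19 (SE 0.203) in ESCs beside -1.81 (unadjusted p = 0.000593). The imprinted *Slc38a4* and *Igf2r* were at 0.33 and 0.55 in ESCs and at -1.52 and -0.701 in NPCs, with unadjusted interaction p-values of 0.00136 and 0.00153. *Plagl1* was higher in J/B in both stages, with log2 fold changes of 1.02 (SE 0.45) and 1.05 (SE 0.44, edgeR interaction, unadjusted p = 0.959), and *Usp29* and *Mirg* were higher in J/B in both, at 1.25 and 1.66 in ESCs and at 0.79 and 0.77 in NPCs. Medians of the gene lists in ESCs were 0.734 for *Hox* genes, 1.14 for endoderm, -0.0883 for interferon response, -0.02702 for trophoblast and -0.0514 for pluripotency genes.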

How the data were processed

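Poly(A) RNA of 8 samples (2 ESC and 2 NPC libraries of each cross, the NPCs at day 12) was sequenced in read pairs. Per the study's methods, reads were mapped with TopHat2 to the mm39 genome masked at JF1 variants, with a refGene-based annotation, and kept by samtools as proper pairs of good mapping quality. The deposited values are raw counts per gene symbol, both alleles together, and the authors' processing notes name HTSeq, DESeq2 and edgeR without versions. The sources used here do not state whether counting used the strand. The 5 closing lines of each table (reads on no gene and the like, which include 7.71% to 10.9% of reads on no feature in NPCs) were left out.

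Genes were placed by symbol on GRCm39, with 25003 on autosomes. The 8 libraries were fitted together with edgeR 4.0.16 (R 4.3.3), with TMM factors, filterByExpr at a minimum count of 10, robust quasi-likelihood F tests and 1 mean per group, and p-values were adjusted over all 16399 genes tested by Benjamini-Hochberg. The standard error is the log2 fold change divided by the square root of F. The model was first tested on simulated counts with known changes. Alternatives were other scalings, DESeq2 1.42.0, limma-voom 3.58.1, other filters, replicate blocks, the NPC libraries alone and each library left out. Gene lists are described by counts and medians, and 11 symbols in them were not found.

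Genes named were the 12 in each direction with the smallest p at a mean of at least 1 CPM. No autosomal gene passed the adjusted test in the main fit. Also named were the *Peg13*-*Kcnk9* domain and imprinted genes with an unadjusted p below 0.05. In each list, the most abundant member was named, and those with the highest and lowest log2 fold change at a mean of at least 1 CPM. The other list members named were chosen after their values were seen, as were the promoters printed, and lists described only by counts name no member. Some genes that these rules name are not reported here. The members and lists were chosen with earlier results of these data known.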

Additional observations from a re-analysis of the deposited data

How the results depend on the processing

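The count of 0 autosomal genes called between the NPCs was also found with RLE factors, library totals, housekeeping scaling, limma-voom, non-robust estimation, a filter at a mean of 1 CPM, the additive replicate block, the 4 NPC libraries alone and each library left out. DESeq2 called 55, no low-count filter 3 (*Elf3*, *Lama1* and *Utf1*), and a replicate block within each stage 3 (*Lama1*, *Tdh* and *Utf1*). In ESCs DESeq2 called 1 (*Mirg*), and for the difference between the stages it called 6 (*Fbln2*, *Igf2r*, *Lama1*, *Slc38a4*, *Tanc2* and *Utf1*). The cause was not tested. The count of genes at an unadjusted p below 0.05 was 1474 by limma-voom, 1631 with the replicate block, 2850 with the block within each stage, and 274 (without B/J replicate 1) to 1772 (without B/J replicate 2) with a library left out. The labels do not say that replicate numbers mark a pairing. Deviations of equally numbered libraries from their group means had a correlation of 0.517 in NPCs and 0.619 in ESCs over 15794 genes. With the block within each stage, 18.04% of all genes had an unadjusted p below 0.05, with 1406 higher and 1444 lower of 15794. Higher genes then numbered 7 instead of 2 among neural precursor markers, 12 instead of 1 among neuronal markers and 20 instead of 0 among synapse genes. They numbered 17 instead of 2 among neurotransmitter receptors, 19 instead of 2 among channels, 16 instead of 1 in axon guidance and 2 instead of 0 in the *Peg13*-*Kcnk9* domain. Lower genes numbered 16 instead of 8 in the interferon list. Imprinted genes then numbered 35 instead of 17, with 20 higher and 15 lower. Of lists with none, clustered protocadherins then had 8 higher, collagens 5 higher and ribosomal proteins 6 lower.

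Of the 46 lists, 31 had a median above 0, and the number was 30 with RLE factors, 34 with library totals, 39 with housekeeping scaling, 31 with the block and 27 to 32 with a library left out. The median turned above 0 with housekeeping scaling for fibroblasts (0.07), the respiratory chain (0.11), Polycomb (0.18), collagens (0.21), FGF (0.18), immediate early (0.20), unfolded protein response (0.18) and housekeeping reference genes (0.14). Of the 173 genes described with values, 149 kept their direction in every one of the 15 alternatives in which they were tested. Of the others, 23 turned with a library left out, with log2 fold changes over the 4 such fits of *Hoxc13* (-0.63 to 0.65), *Ttr* (-0.35 to 5.86), *Dab2* (-0.36 to 0.36), *Neurod6* (-0.47 to 4.10), *Nefl* (-0.64 to 1.54), *Irx3* (-0.64 to 0.22), *Lin28a* (-0.39 to 2.01), *Prdm14* (-3.17 to 0.20), *Prl2a1* (-0.51 to 0.52), *H19* (-0.30 to 0.64), *Trappc9* (-0.0376 to 0.24), *Chrac1* (-0.17 to 0.11), *Ago2* (-0.32 to 0.16), *Gas1* (-0.16 to 0.39), *Fgfr1* (-0.35 to 0.0141), *Acvr2b* (-0.0834 to 0.42), *Sparc* (-0.19 to 0.53), *Dlx2* (-2.20 to 0.0958), *Pdgfra* (-1.04 to 0.31), *Tfap2b* (-0.67 to 1.34), *Dazl* (-3.897 to 0.67), *Zfp57* (-0.20 to 0.97) and *Trim28* (-0.0905 to 0.34). *Irx3* (0.0723), *Chrac1* (0.22), *Ago2* (0.13), *Fgfr1* (0.0724), *Pdgfra* (0.10) and *Fn1* (0.00417) turned with housekeeping scaling, *Chrac1* with library totals (0.0489) and the 4 NPC libraries alone (0.0107), and *Prl2a1* with RLE factors (-0.00183) and DESeq2 (-0.00188).

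With 2 libraries per cross and 1 line per cross, these counts resolve only large and steady differences. Where a library is left out, its cross is a single library assumed to vary like the other groups. Genes below about 1 CPM rest on few reads, and total counts hold no allelic information.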

Other observations

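Sex-linked genes stood outside the autosomal comparison. A male cell holds a single X chromosome from its mother and a Y chromosome from its father, so B/J and J/B cells differ in the strain of both. Of 595 X-linked genes tested, 92 (15.5%) had an edgeR unadjusted p below 0.05 between the NPCs, beside 6.05% of autosomal genes. *Firre* (chrX:49644621-49724249), an X-linked long non-coding RNA of nuclear organisation, was the only gene on any chromosome with an adjusted p below 0.05 in the main edgeR fit. It was read at 155 and 144 CPM in B/J and 16.9 and 14.01 CPM in J/B NPCs, a log2 fold change of -3.32 (SE 0.28, adjusted p = 0.0431), and at -1.75 (SE 0.26) in ESCs. The Y-linked *Eif2s3y*, a translation initiation factor gene, was read at 4.35 and 3.05 CPM in B/J and 19.4 and 25.1 CPM in J/B NPCs (edgeR unadjusted p = 0.00177, adjusted p = 0.734), and the histone demethylase gene *Kdm5d* at 1.85 and 1.58 against 8.07 and 8.31 CPM. The Y-linked *Ddx3y* and *Uty* were read at 59.3 and 35.7 against 63.2 and 94.8 CPM and at 23.7 and 18.7 against 27.9 and 34.4 CPM, with log2 fold changes of 0.67 (SE 0.31) and 0.497 (SE 0.25).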
